A study of Mus musculus with 6 samples.

Results

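The nuclear receptor superfamily was examined in whole adrenal glands of mice with a conditional knockout of Gata6. The members were 44 listed genes of the superfamily, taken without the clock genes Nr1d1 and Nr1d2, and matched as every array probe whose deposited symbol equals a listed name. This gave 84 of the 45281 probes on the array, for 43 of the 44 genes, since no probe carried the symbol Nr2f1. Signal sufficed for a test at 42 of them, for 25 genes, out of 19210 probes and 13327 genes tested in all. The arrays were Illumina bead arrays, with 3 samples labelled conditional knockout (cKO) and 3 labelled control, the latter from mice that the labels call normal. All 6 samples were adrenal glands of adult virgin females of strain B6.FVB. Neither the driver of the deletion nor whether a sample is 1 animal or a pool is given in the sources used. The p-values therefore rest on the spread among these samples alone.

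Nuclear receptors are transcription factors that bind DNA through a zinc finger domain and carry a pocket for small lipid-soluble ligands. Receptors of steroids, thyroid hormone, retinoids, vitamin D, oxysterols, bile acids and fatty acids change the genes they activate when the ligand is present, and many of them pair with a retinoid X receptor. Orphan members act without a known natural ligand. In the adrenal cortex the orphan receptor encoded by Nr5a1 switches on the enzymes of steroid synthesis, and the receptor encoded by Nr0b1 restrains it. The adrenal is a source of steroid ligands for receptors elsewhere in the body.

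3 promoter windows are shown. That of Nr1h3 belongs to the receptor gene that passed the test, and those of Rarb and Nr1h4 to genes with every array labelled cKO below every control, short of the threshold. Each runs 5′ to 3′ along the gene's strand, from 250 bases before to 50 bases after a RefSeq transcript start (build GRCm38.p6). The windows lie at chr14:16575427-16575726 for Rarb, chr2:91195067-91195366 for Nr1h3 and chr10:89506609-89506908 for Nr1h4, all on the minus strand. Capitals mark the retinoic acid response element motif in Rarb (GGTTCA, 5 further bases, AGTTCA), and the GATA motif GATAA and the receptor motif AGGTCA, both matched on the opposite strand, in Nr1h4.
Rarb: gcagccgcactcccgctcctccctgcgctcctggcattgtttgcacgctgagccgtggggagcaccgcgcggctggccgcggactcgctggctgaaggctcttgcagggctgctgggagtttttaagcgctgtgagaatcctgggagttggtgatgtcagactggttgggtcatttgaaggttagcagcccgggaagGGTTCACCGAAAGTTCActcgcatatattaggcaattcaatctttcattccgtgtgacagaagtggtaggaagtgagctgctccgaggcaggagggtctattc
Nr1h3: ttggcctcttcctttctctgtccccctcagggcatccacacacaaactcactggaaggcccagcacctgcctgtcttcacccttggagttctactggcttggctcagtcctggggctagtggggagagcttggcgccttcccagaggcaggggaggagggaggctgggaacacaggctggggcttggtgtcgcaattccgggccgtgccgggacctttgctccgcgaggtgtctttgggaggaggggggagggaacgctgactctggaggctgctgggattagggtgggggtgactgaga
Nr1h4: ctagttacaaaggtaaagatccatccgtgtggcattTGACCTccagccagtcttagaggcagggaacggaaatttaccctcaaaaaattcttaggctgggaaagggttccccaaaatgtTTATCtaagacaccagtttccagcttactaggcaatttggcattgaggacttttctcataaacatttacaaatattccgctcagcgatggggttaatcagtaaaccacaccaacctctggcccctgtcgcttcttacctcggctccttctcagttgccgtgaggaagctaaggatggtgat

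Nr1h3 has 2 windows in the RefSeq table, and the first is shown. Windows were found for 40 of the 44 genes, 61 in all, and 5 motifs were searched on both strands. GATAA occurred in 10 of the 61 windows (16.4%) against 25.4% of all 32851 windows of this length. AGGTCA occurred in 11 (18.0%) against 16.3%, and the longer AAGGTCA, which contains it, in 3 (4.92%) against 4.72%. The retinoic acid response element began 53 bases before the Rarb start, and 2 of all 32851 windows held it. The repeat of AGGTCA with 4 bases between the copies was in 0 of the 61 windows and 5 of all. A match is a description of letters and not a shown binding site.

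Facts of the whole series bear on every value below. Levels are log2 units after background correction and quantile normalization, and a difference is the mean of the arrays labelled cKO minus that of the control arrays. Between 18314 and 19459 probes were detected per array, and the lowest detected signals lay between 5.11 and 5.25. Gata6, the targeted gene, read 11.80, 11.66 and 11.71 on control replicates 1 to 3 and 12.00, 12.06 and 12.31 on cKO replicates 1 to 3. The difference of 0.40 (SE 0.10) missed the threshold (limma, adjusted p = 0.0544), and its sign goes against the label. No source used here places the probe relative to the deleted part, so the reading may check nothing. Directions are therefore given for arrays as labelled. The adrenal markers were present, with 9 of 10 cortical and 11 of 14 chromaffin markers tested.

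Of the 25 receptor genes tested, 1 rose and 0 fell at an adjusted p under 0.05 (limma, Benjamini-Hochberg over all tested probes). Among all genes tested 6.98% passed, 4.34% higher and 2.64% lower, so 1 of 25 is near the background. At an unadjusted p under 0.05 there were 8 receptor genes, against 23.7% of all genes. The 3 arrays of each label lay apart for 11 receptor genes, 6 with cKO above and 5 with cKO below, where 29% of all genes were separated in this way. The median difference of the receptors was 0.03, and that of all genes was -0.01. Of the 25 differences, 14 were smaller than 0.25 in size, but the 95% model interval lay wholly within 0.5 of no change for 7 genes and within 1 for 21. A change smaller than those limits could therefore be missed.

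**Figure D1:**
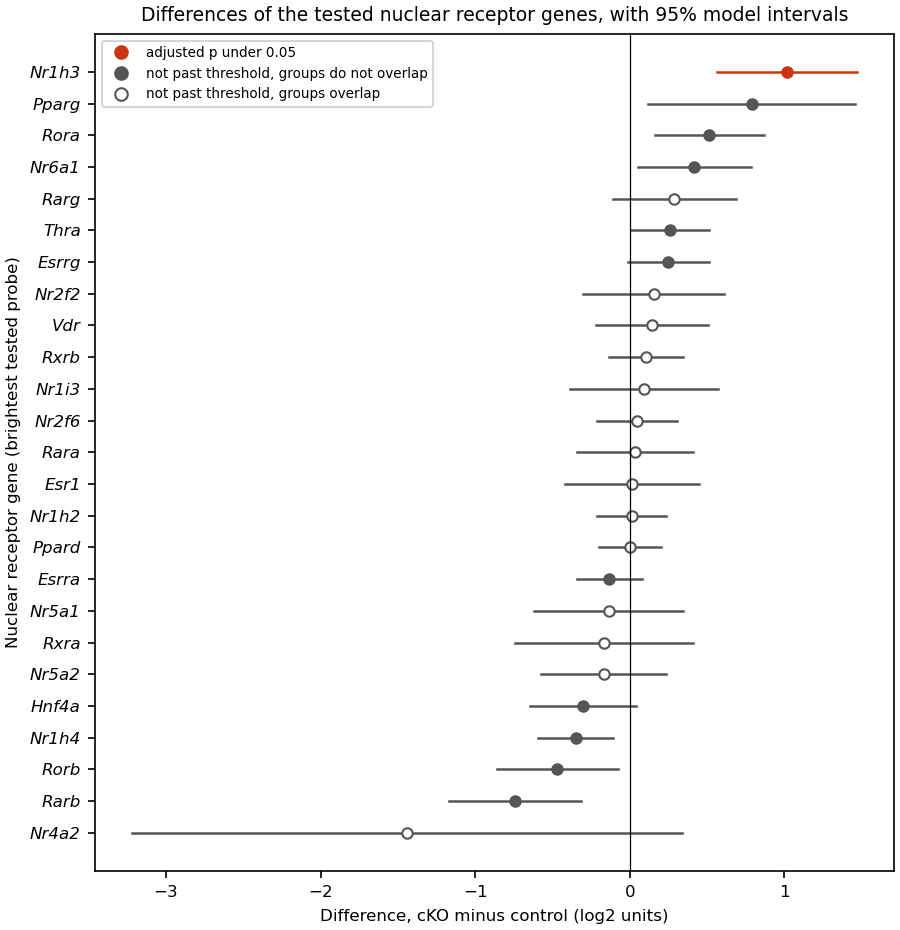
The horizontal axis gives the difference, cKO minus control, in log2 units for the 25 tested nuclear receptor genes, each by its brightest tested probe. Bars are 95% model intervals, filled points mark genes whose groups did not overlap, and red marks Nr1h3, the 1 gene past the threshold, at 1.02.

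The oxysterol receptor gene Nr1h3 was the 1 member that rose. It encodes liver X receptor alpha, which responds to oxidized cholesterol and switches on genes of cholesterol efflux and fatty acid synthesis. Nr1h3 read 9.39, 8.69 and 8.85 on control replicates 1 to 3 and 9.85, 10.30 and 9.84 on cKO replicates 1 to 3. All arrays labelled cKO lay above all controls, with control replicate 1 the closest. The rise was 1.02 (SE 0.20), or 2.03-fold (limma, adjusted p = 0.0216). It lost the threshold without control replicate 2 (0.88, adjusted p = 0.0735), control replicate 3 (0.95, adjusted p = 0.0602), cKO replicate 2 (0.87, adjusted p = 0.0687) or cKO replicate 3 (1.10, adjusted p = 0.0562). A further Nr1h3 probe, at 5.48 to 6.10 on all arrays and so close to background, differed by 0.22 (SE 0.20, adjusted p = 0.555).

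The other sensors of sterols, bile acids and foreign compounds did not pass. Nr1h2, which encodes the widely expressed liver X receptor beta, read 10.45, 10.68 and 10.55 on control replicates 1 to 3 and 10.56, 10.66 and 10.51 on cKO replicates 1 to 3. Its groups overlapped fully, and its difference of 0.01 had a 95% interval from -0.21 to 0.24. Both median scalings gave it a sign below 0 (-0.01 and -0.11), and so did its further probe (-0.05). The difference between the responses of Nr1h3 and Nr1h2 was not tested.

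Nr1h4, the bile acid receptor gene FXR, read 11.20, 11.19 and 11.10 on control replicates 1 to 3 and 10.61, 10.88 and 10.95 on cKO replicates 1 to 3. All arrays labelled cKO lay below all controls. Its difference of -0.35 (SE 0.11, 95% interval -0.59 to -0.11) did not pass (limma, adjusted p = 0.0940). With arrays scaled to the median of the tested probes it was -0.50 and passed (limma, adjusted p = 0.0272). That scaling was chosen after seeing the data, and it moved the median of all genes from -0.01 to -0.09. Nr1h4 passed under no other setting, and under median scaling over all probes it was -0.40 (adjusted p = 0.128). Nr1i3, the xenobiotic receptor CAR, differed by 0.09 on its brightest probe and 0.10 on a further probe, both with overlapping groups at 5.57 to 6.33. Nr1i2, the xenobiotic receptor PXR, was detected on 0 of the 6 arrays.

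**Figure D2:**
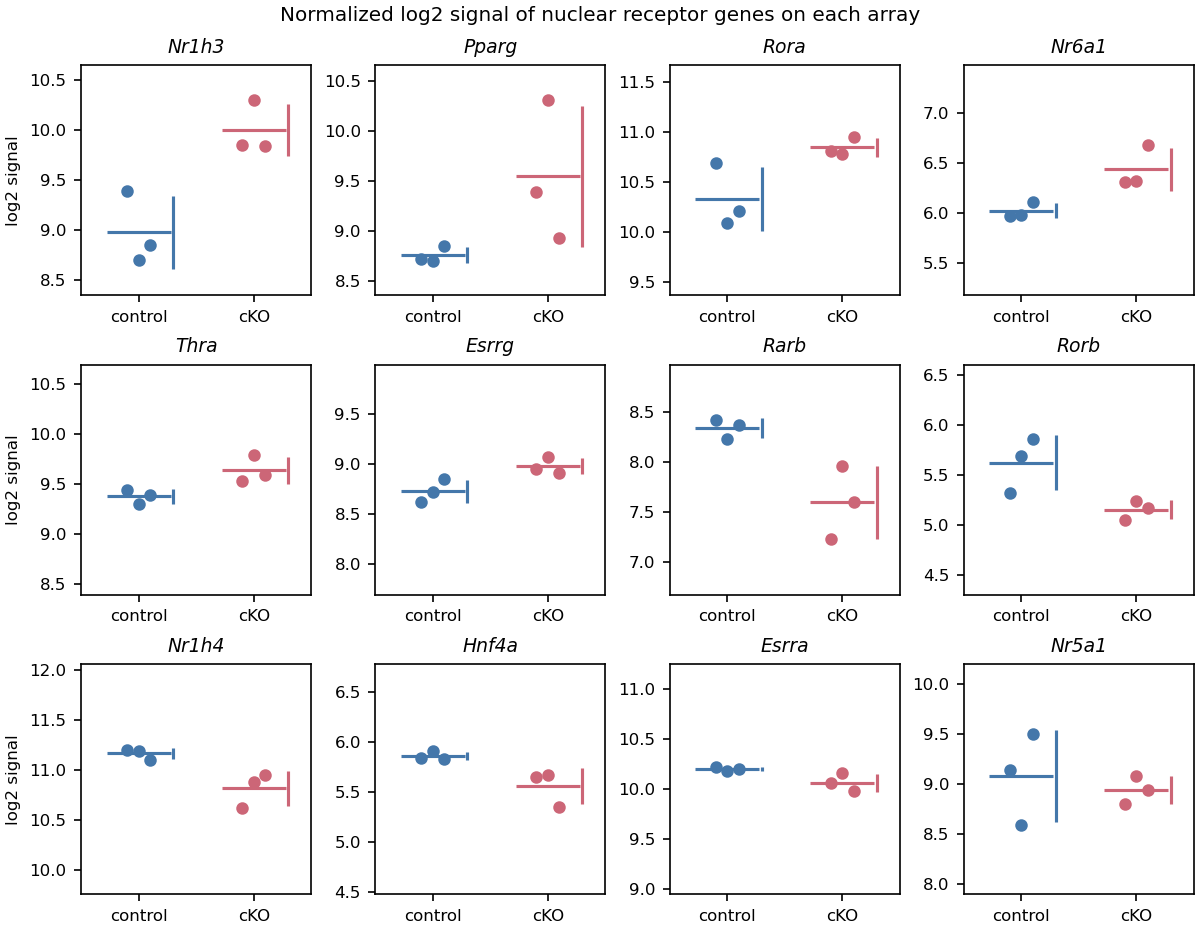
Each panel gives the normalized log2 signal of 1 nuclear receptor gene on the 3 control and 3 cKO arrays, with the same span on every vertical axis. Points are arrays, horizontal lines are group means and vertical bars are 1 SD on either side. The first 6 panels show genes with all cKO arrays above the controls, the next 5 genes with all cKO arrays below, and Nr5a1, whose groups overlapped, comes last.

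Genes listed as liver X receptor targets were mixed. Of 15 listed, 12 were tested, 3 rose and 0 fell, with a median difference of -0.08. The counts of this and the later lists stand beside 6.98% of all genes past the threshold, 4.34% higher and 2.64% lower. All lists were chosen with earlier results of these data known. A count above the share of all genes is therefore a description and not a separate result. Those that rose were the lipase gene Lpl (1.34, SE 0.31, adjusted p = 0.0369), the desaturase gene Scd1 (1.07, SE 0.21, adjusted p = 0.0226) and the phospholipid transfer protein gene Pltp (0.94, SE 0.13, adjusted p = 0.00559). Lpl and Scd1 each lost the threshold when any 1 of the control replicates or cKO replicate 3 was left out, and Lpl also with a robust variance (adjusted p = 0.140) or without an intensity trend (adjusted p = 0.0606). The other 9 tested genes lay between -0.41 and 0.13, none past the threshold. Among them were the cholesterol exporter gene Abcg1 (-0.30), Apoe (-0.41) and the lipogenic regulator gene Srebf1 (-0.09). Fasn (0.13) and Abcg5 (0.07), both near background, lay above 0. The remaining listed genes Abca1, Abcg8 and Mylip were detected on 0 arrays.

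The steroidogenic orphan receptor gene Nr5a1 did not differ beyond its spread. It read 9.14, 8.59 and 9.50 on control replicates 1 to 3 and 8.80, 9.08 and 8.94 on cKO replicates 1 to 3. The arrays labelled cKO lay inside the range of the controls. The difference of -0.14 had a 95% interval from -0.62 to 0.35 (limma, adjusted p = 0.750), and a further probe read -0.17. Without control replicate 3 the sign turned (0.08). Nr5a2, the close relative known from liver and ovary, lay at 5.02 to 5.66 on both tested probes, near background, with differences of -0.17 and 0.15 that did not pass.

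Nr0b1, which encodes DAX1, a repressor of Nr5a1 in the adrenal cortex, was detected on 0 of 6 arrays, and so was its relative Nr0b2. Each had 1 probe, and whether the transcript was absent or the probe insensitive was not tested. Among 17 tested genes of 19 listed as Nr5a1 or steroidogenic targets, 2 rose and 1 fell, with a median of -0.01. They were Amhr2, the receptor of anti-Müllerian hormone (2.76, SE 0.36, adjusted p = 0.00449), the corticotropin receptor gene Mc2r (0.54, SE 0.10, adjusted p = 0.0147) and, lower, the electron carrier gene Fdxr (-0.49, SE 0.07, adjusted p = 0.00697). Further Amhr2 probes rose by less, 1.38 and 0.86 (limma, adjusted p = 0.0131 and 0.0240). The quoted Amhr2 probe came down to 5.22 on control replicate 3, so its size rests partly on background. Under median scaling over all probes Mc2r did not pass (0.40, adjusted p = 0.0613), nor over the tested probes (0.30, adjusted p = 0.120).

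The classical steroid hormone receptors were largely out of reach of these probes. Nr3c1, the glucocorticoid receptor gene, was detected on 1 control array and 0 arrays labelled cKO, at 4.71 to 5.32. Nr3c2, the mineralocorticoid receptor gene, Esr2 and Pgr were detected on 0 arrays. Whether these transcripts were absent or their probes insensitive was not tested. Esr1, which encodes oestrogen receptor alpha, read 6.40, 6.42 and 6.93 on control replicates 1 to 3 and 6.44, 6.58 and 6.77 on cKO replicates 1 to 3. Its groups overlapped, and the difference of 0.01 had a 95% interval from -0.42 to 0.45. The sign was below 0 without control replicate 1 (-0.08), control replicate 2 (-0.07) or cKO replicate 3 (-0.08).

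Listed targets and partners of the steroid receptors gave these counts. Among 14 tested glucocorticoid receptor targets 2 rose and 0 fell, with a median of 0.12. They were the chaperone gene Fkbp5 (0.98, SE 0.16, adjusted p = 0.0112) and the lipocalin gene Lcn2 (2.81, SE 0.23, adjusted p = 6.74e-04), the latter detected on 2 control arrays, so that its size rests partly on background. Fkbp5, a cochaperone that lowers hormone binding of the glucocorticoid receptor, was also the 1 of 12 receptor chaperone genes that changed, and their median was 0.04. Among 9 tested oestrogen and progesterone targets 3 rose, Igfbp4 (1.26, SE 0.11, adjusted p = 8.82e-04), Fkbp5 and Cxcl12 (0.65, SE 0.12, adjusted p = 0.0155), and 0 fell, with a median of 0.16. Cxcl12 was not past the threshold without cKO replicate 3 (adjusted p = 0.0615).

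Of the retinoid receptors, Rarb came close to the threshold without passing it. Rarb, the retinoic acid receptor gene that is itself switched on by retinoic acid through the element printed above, read 8.42, 8.23 and 8.37 on control replicates 1 to 3. On cKO replicates 1 to 3 it read 7.23, 7.96 and 7.60. Every array labelled cKO lay below every control, and the cKO arrays spread more widely, with an SD of 0.36 against 0.10. The difference of -0.74 (SE 0.19, 95% interval -1.17 to -0.31) missed the threshold (limma, adjusted p = 0.0532).

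Rarb passed under 5 of the 16 alternative settings and missed the threshold under the others. It passed with scaling to the median of the tested probes, chosen after seeing the data (-0.75, limma, adjusted p = 0.0378). Detection on all arrays at a p under 0.01 (-0.74, adjusted p = 0.0497) and a robust variance (adjusted p = 0.0386) also gave a pass. So did array weights (-0.73, adjusted p = 0.0335) and leaving out cKO replicate 2 (-0.92, adjusted p = 0.0314). A further Rarb probe, at 7.61, 7.00 and 7.34 on control replicates 1 to 3 and 6.89, 7.75 and 7.33 on cKO replicates 1 to 3, differed by 0.01 (SE 0.24). The probes of Rarb therefore disagree. Which transcripts each of them reads was not determined.

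The other retinoid receptors showed no call. Rxra, the common partner of many receptors, read 5.66, 6.38 and 5.65 on control replicates 1 to 3 and 5.35, 6.06 and 5.78 on cKO replicates 1 to 3. Its groups overlapped (-0.17, 95% interval -0.74 to 0.41), and the sign turned without control replicate 2 (0.08) or cKO replicate 1 (0.02). Rxrb, also a partner receptor, differed by 0.10 on its brightest probe, 0.19 on another and -0.24 on the dimmest, none past the threshold, and by -0.03 on the brightest when scaled to the median of the tested probes. Rara differed by 0.03 at 5.26 to 5.67, near background, and Rarg by 0.29 on the brightest probe and -0.06 on another. Rxrg was detected on 1 array, cKO replicate 2, at 6.17, against 4.59 to 4.67 on the controls.

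Retinoid enzymes and retinoic acid targets, a list that includes Rarb, changed in both directions. Of 20 listed, 13 were tested, 4 rose and 1 fell, with a median of -0.13. The changed genes with the largest differences were the retinol-oxidizing alcohol dehydrogenase gene Adh7 (6.56, SE 0.92, adjusted p = 0.00558) and the retinoic acid binding protein gene Crabp1 (-1.22, SE 0.16, adjusted p = 0.00469). Adh7 was detected on 1 control array and Crabp1 came down to 5.19 to 5.33, so the sizes of both rest partly on background. With a robust variance Adh7 did not pass (adjusted p = 0.0671).

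Thyroid hormone and vitamin D receptors did not pass. Thra, the main thyroid hormone receptor gene of many tissues, read 9.44, 9.30 and 9.39 on control replicates 1 to 3 and 9.53, 9.79 and 9.59 on cKO replicates 1 to 3. The arrays labelled cKO lay above the controls by a small margin, with a difference of 0.26 (SE 0.11, adjusted p = 0.204), and a dim further probe read 0.13. Thrb was detected on 1 control array. Vdr, the vitamin D receptor gene, read 7.63, 7.81 and 7.82 on control replicates 1 to 3 and 8.16, 7.67 and 7.87 on cKO replicates 1 to 3. Its groups overlapped (0.14, SE 0.16), and a further probe read -0.004.

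Some genes that handle the ligands of these receptors, or respond to them, did pass. These lists too were chosen with earlier results known, so their counts do not show a response to either hormone. Among 7 tested genes of thyroid hormone handling and response 2 rose and 0 fell, with a median of 0.13: the iodotyrosine deiodinase gene Iyd (2.93, SE 0.26, adjusted p = 0.00103) and Dio3, the deiodinase that inactivates thyroid hormone (1.38, SE 0.20, adjusted p = 0.00667). Iyd was detected on 1 control array and Dio3 on 2, so both sizes rest partly on background. Of 9 vitamin D genes 3 were tested and all passed, Cyp27a1, a sterol hydroxylase, at 0.75 (SE 0.13, adjusted p = 0.0125), the bone sialoprotein gene Ibsp at 4.17 (SE 0.72, adjusted p = 0.0135) and the osteopontin gene Spp1 at -3.63 (SE 0.67, adjusted p = 0.0169). Ibsp was detected on 2 control arrays and read 5.07 on the other, so its size rests partly on background. Ibsp and Spp1 did not pass with a robust variance (adjusted p = 0.104 and 0.108) or without cKO replicate 3 (0.0536 and 0.0705), and Spp1 not without control replicate 2 or cKO replicate 2 either (0.0517 and 0.0576). Cyp27a1 did not pass without cKO replicate 3 (0.0508). A further Cyp27a1 probe passed (0.55, limma, adjusted p = 0.0437) and another did not (0.56, adjusted p = 0.0678).

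Pparg, the master regulator gene of fat cell differentiation, had the second highest difference among the receptors but did not pass. It read 8.72, 8.71 and 8.85 on control replicates 1 to 3 and 9.39, 10.32 and 8.93 on cKO replicates 1 to 3. The controls lay close together, whereas cKO replicate 2 was high and cKO replicate 3 was barely above the controls. The difference was 0.79 (SE 0.29, 95% interval 0.12 to 1.46, adjusted p = 0.155). Without cKO replicate 2 it was 0.40 (adjusted p = 0.251), so its size and rank rest on that array. Ppard, expressed in most tissues, differed by 0.003 (95% interval -0.20 to 0.20). Its sign was below 0 under both median scalings (-0.04 and -0.14). Ppara, the fatty acid oxidation regulator, was detected on 0 arrays.

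Fat cell markers differed between the labels as a summed signal, with cKO replicate 2 highest. Of 10 fat markers listed 8 were tested, 7 lay above 0 and 3 rose, and Fabp4 and Retn were detected on 0 arrays. Their summed signal above the offset, in linear intensity units, was 24756 to 28597 on the control arrays and 50358, 70824 and 51188 on cKO replicates 1 to 3. Cfd, the brightest of them, read 14.13 to 14.39 on the control arrays and 15.17 to 15.48 on the arrays labelled cKO and makes up much of these sums. The mean log2 level of the 8 markers was 9.72, 9.87 and 10.09 on control replicates 1 to 3 and 10.73, 11.40 and 9.96 on cKO replicates 1 to 3, so that cKO replicate 3 lay inside the range of the controls. Cidea (10.16) and Ucp1 (7.67) were lowest on cKO replicate 3. The part of fat cells in the Pparg and Nr1h3 values was not tested. In whole glands more cells of a type and more RNA per cell cannot be told apart. Among 11 tested PPAR gamma targets 3 rose and 0 fell, with a median of 0.69. They were the lipid droplet gene Cidec (1.49, SE 0.30, adjusted p = 0.0239), the adiponectin gene Adipoq (1.38, SE 0.19, adjusted p = 0.00520) and Lpl. Adipoq, Cidec, Plin1, Lipe, Ucp1 and Cidea are on both this list and the fat marker list. The values of the target list therefore largely repeat those of the fat markers. Cidec was not past the threshold with a robust variance (adjusted p = 0.0742) or without control replicate 1 or 2 (0.0658 and 0.0749). Among 11 tested PPAR alpha and delta targets 2 rose and 0 fell, with a median of 0.17. They included the thioesterase gene Acot1 (2.35, SE 0.29, adjusted p = 0.00393).

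**Figure D3:**
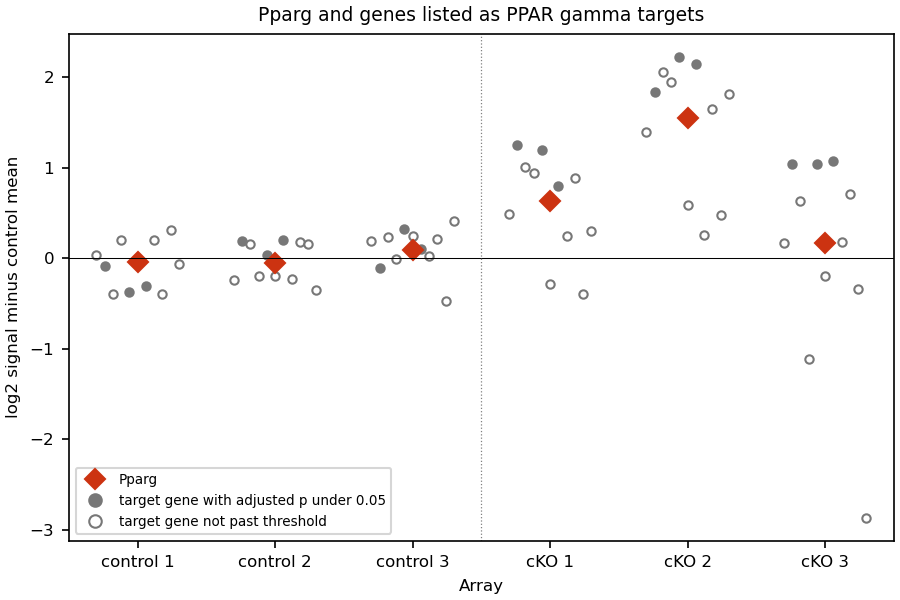
The vertical axis gives each gene's log2 signal minus its mean on the 3 control arrays, for Pparg (red diamonds) and 11 genes listed as PPAR gamma targets (circles, filled where past the threshold), by array. Pparg and all 11 targets stood highest on cKO replicate 2. Adipoq, Cidec, Plin1, Lipe, Ucp1 and Cidea are also on the fat marker list.

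Markers of other cells were set beside the Nr1h3 rise as well. Macrophages, where liver X receptor alpha is well studied, were represented by 9 tested markers, of which 1 lay above 0, 1 fell and 0 rose. Their summed signal was 14026 to 19566 on the control arrays and 12561 to 17947 on the arrays labelled cKO. Of 9 tested capsule and mesenchyme markers 8 rose, with sums of 28047 to 31166 against 55942 to 78197. The remaining listed markers Gli1 and Col1a2 were detected on 0 and 2 arrays. The 9 tested markers of the adrenal cortex had overlapping sums, 91693 to 124750 against 105146 to 112725, with 1 higher, Mc2r, and 0 lower. Of 14 chromaffin markers 11 were tested, all above 0, with 3 that rose and 0 that fell, and Snap25 was detected on 0 arrays. Their sums were 64789 to 82497 on the control arrays and 99048 to 122684 on the arrays labelled cKO. The parts of macrophages and of capsule, cortical and chromaffin cells in the Nr1h3 rise were not tested.

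The receptors of the ROR group differed in sign, and neither passed. Rora, which helps to drive the circadian clock and lipid metabolism, read 10.69, 10.08 and 10.21 on control replicates 1 to 3 and 10.81, 10.77 and 10.95 on cKO replicates 1 to 3. All arrays labelled cKO were above the controls, narrowly so for control replicate 1. The difference was 0.52 (SE 0.15, adjusted p = 0.0875), a further probe read 0.46 (SE 0.20, adjusted p = 0.207), and without control replicate 1 the first passed (0.70, adjusted p = 0.0177). Rorb differed by -0.47 (SE 0.17, adjusted p = 0.148) with separated groups, at 5.32 to 5.85 against 5.05 to 5.24, but only 2 cKO arrays detected it and the size rests partly on background. A further Rorb probe read -0.09. The difference between Rora and Rorb was not tested.

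The NR2 orphan receptors and the HNF4 genes gave no call. Nr2f2, the orphan receptor COUP-TFII found in mesenchyme and steroidogenic cells, read 8.84, 8.50 and 9.35 on control replicates 1 to 3 and 9.13, 9.11 and 8.91 on cKO replicates 1 to 3. The arrays labelled cKO lay inside the range of the controls (0.15, SE 0.20, and 0.09 on a further probe), and without control replicate 2 the sign turned (-0.04). Nr2f6, a related orphan receptor, differed by 0.05 on the brightest probe and -0.13 on another. Hnf4a, a regulator of liver and gut genes, lay near background at 5.83 to 5.91 on the control arrays and 5.35 to 5.67 on the arrays labelled cKO, which were all lower (-0.30, SE 0.15, adjusted p = 0.277). Nr2c1 was detected on 2 arrays, and Nr2c2, Nr2e1, Nr2e3 and Hnf4g on 0.

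Nr4a2 had the widest spread of the 25 tested members. It encodes NURR1, an orphan receptor of the NR4A group, whose genes are switched on within minutes of a stimulus, in the adrenal also by corticotropin. Nr4a2 read 5.95, 7.92 and 9.83 on control replicates 1 to 3 and 6.81, 6.47 and 6.09 on cKO replicates 1 to 3. The controls thus ran from below every cKO array to well above all of them. The difference of -1.44 (SE 0.78, 95% interval -3.22 to 0.34) did not pass (limma, adjusted p = 0.319), and its size rests on single controls. Without control replicate 1 it was -2.41 and passed (adjusted p = 0.0366), and without control replicate 3 it was -0.48 (adjusted p = 0.633). Nr4a3, the relative NOR1, was detected on 2 control arrays and 0 arrays labelled cKO, with the top value of 6.27 again on control replicate 3. Nr4a1, encoding NUR77, was detected on 0 arrays.

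Some immediate early genes followed the same arrays as Nr4a2. Fos, Junb and Klf4 were picked for this after their values had been seen. Fos read 6.31, 9.48 and 9.64 on control replicates 1 to 3 and 6.34, 7.76 and 6.66 on cKO replicates 1 to 3. Junb read 9.61, 12.36 and 13.37 and then 9.78, 10.50 and 10.37. Klf4 read 5.37, 7.31 and 9.31 and then 6.55, 6.49 and 6.47. Like Nr4a2, each was lowest on control replicate 1 and highest on control replicate 3, and none passed (adjusted p = 0.292, 0.279 and 0.582). Without control replicate 1, Fos (-2.64, adjusted p = 0.0107) and Junb (-2.65, adjusted p = 0.00508) did, and without control replicate 3 they read -0.98 and -0.77. Of the 14 tested genes of the list 8 were lowest on control replicate 1 and highest on control replicate 3, and 6 were not. Among the latter, Jun, Jund and Klf6 were highest on control replicate 1, and Arc and Egr3 on an array labelled cKO. Among 14 tested immediate early genes 1 fell, Jun (-0.60, SE 0.15, adjusted p = 0.0479), and 0 rose, with a median of -0.30. The summed signal of the list was 9963, 19536 and 29751 on control replicates 1 to 3 and 10387, 15264 and 11457 on cKO replicates 1 to 3. Tissue handling and stimulation were not recorded in the labels, and their part in these values was not tested. The fall of Jun did not pass under median scaling over all probes (-0.64, adjusted p = 0.0530), with the authors' matrix values (adjusted p = 0.0506), with all probes tested (0.0556), without an intensity trend (0.0805), with the replicate number as a block (0.0600), or when control replicate 1, control replicate 3 or any 1 cKO replicate was left out.

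**Figure D4:**
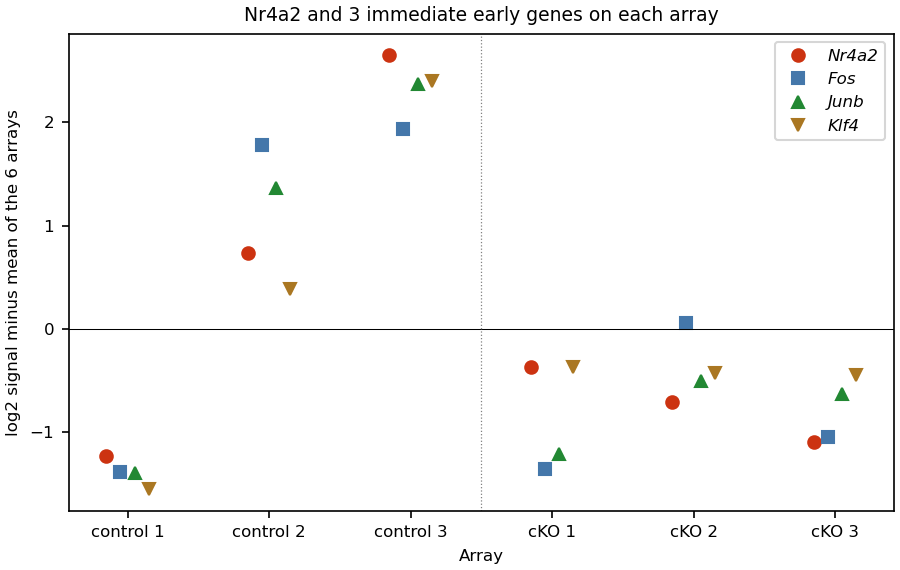
The vertical axis gives the log2 signal of Nr4a2, Fos, Junb and Klf4 on each array minus the gene's mean over the 6 arrays. All 4 were lowest on control replicate 1 and highest on control replicate 3.

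Among the oestrogen-related receptors, which act without oestrogen on genes of mitochondrial energy production, Esrra lay lower and Esrrg higher, both by little. Esrra read 10.17 to 10.21 on the control arrays and 9.98 to 10.15 on the arrays labelled cKO (-0.13, SE 0.09, adjusted p = 0.444). A further Esrra probe, with overlapping groups, read -0.10 (SE 0.14). Esrrg read 8.61 to 8.84 and 8.91 to 9.06 (0.25, SE 0.12, adjusted p = 0.245), and a further probe with separated groups read 0.28 (SE 0.15). On the brightest probe of each the groups did not overlap but neither passed, and Esrrb was detected on 1 array. Nr6a1, an orphan receptor of germ cells and early embryos, read 5.97 to 6.10 on the control arrays and 6.31 to 6.68 on the arrays labelled cKO (0.42, SE 0.16, adjusted p = 0.166). Of 11 tested genes listed as oestrogen-related receptor targets 0 passed, with a median of -0.02. At an unadjusted p under 0.05 (limma) there were 2, against 23.7% of all genes. The brightest, the ATP synthase gene Atp5b, differed by -0.14 at a level near the top of the scale.

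Proteins that receptors recruit gave no call either. Of 28 listed coactivators and corepressors 20 were tested and 0 passed, with a median of 0.002. At an unadjusted p under 0.05 (limma) there were 4, against 23.7% of all genes. The brightest, the arginine methyltransferase gene Prmt1, read 12.52, 12.69 and 12.59 on control replicates 1 to 3 and 12.85, 12.96 and 12.89 on cKO replicates 1 to 3 (0.30, SE 0.08, adjusted p = 0.0621). It passed with array weights (adjusted p = 0.0373). Of 10 xenobiotic receptor targets 3 were tested and 0 passed (limma, 1 at an unadjusted p under 0.05), with the transporter gene Abcb1b at 0.19 (adjusted p = 0.421).

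**Figure D5:**
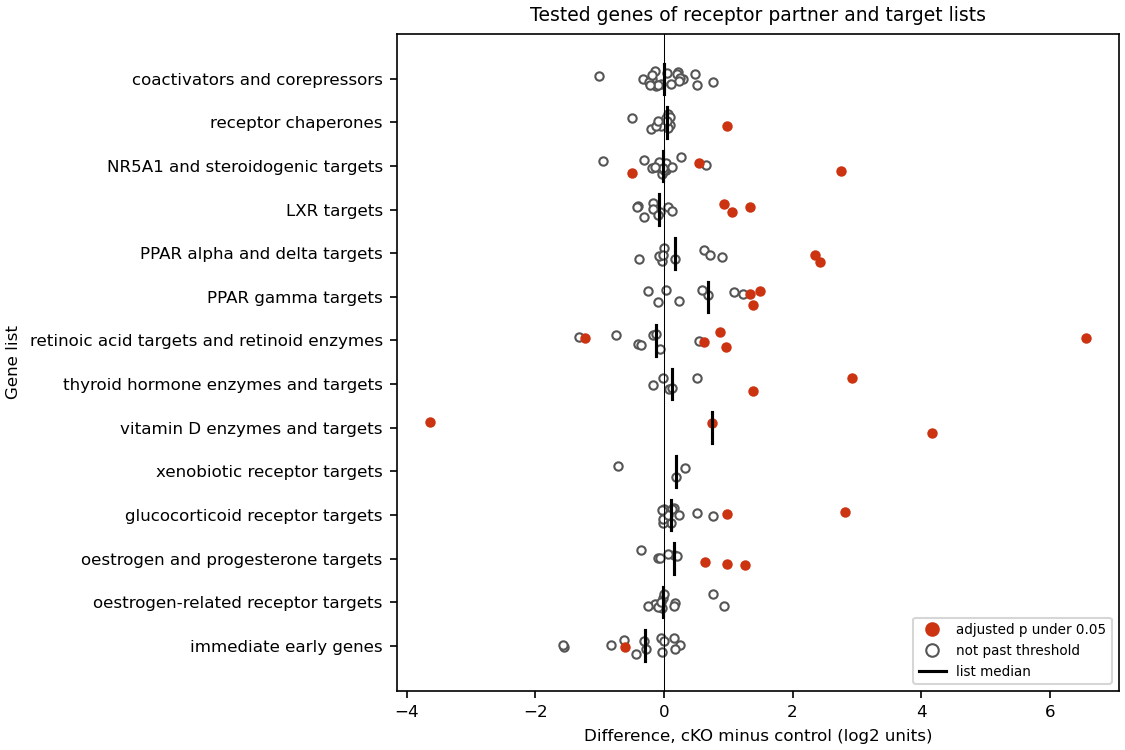
Each row holds the tested genes of 1 list of receptor partners or targets, with the difference, cKO minus control, in log2 units on the horizontal axis. Red points passed the threshold and black bars are list medians. The medians of the coactivator and chaperone lists lay at 0.002 and 0.04, and that of the PPAR gamma targets at 0.69.

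Many member probes were dim. Of the 42 member probes that were not tested, 33 were detected on 0 arrays, at 4.31 to 5.08. Of the 43 genes with a probe, 23 had a probe detected on all 6 arrays, 8 on 1 to 5 arrays and 12 on 0. For those 12, a lack of detection does not show that the transcript was absent. Of the 25 tested genes 16 had more than 1 tested probe. In 7 of those, Nr5a2, Nr1h2, Vdr, Rarb, Rarg, Rxrb and Nr2f6, a further probe had the opposite sign.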

How the data were processed

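Total RNA of adrenal glands was labelled with biotin and hybridised to Illumina bead arrays, per the labels' protocols. The deposited table gives for each probe and array an intensity that the authors left without normalization and a p-value of detection, as the file headers name them (deposited by the authors). The series matrix holds processed intensity values of the same arrays, by a method that the sources used here do not give, and served as an alternative (log2 of the value plus 50).

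Intensities were background-corrected with normexp (offset 16), quantile normalized and log2 transformed. Probes detected (p under 0.05) on 3 or more of the 6 arrays were tested with limma 3.58.1 in R 4.3.3 (lmFit, eBayes with an intensity trend), with 3 arrays per group and Benjamini-Hochberg adjustment over all 19210 probes at a threshold of 0.05. A gene is given by its brightest tested probe. The script was tested on simulated data. The number of arrays limits the precision, and the labels do not say that samples come from separate animals, so the spread may be technical. Symbols were updated through RefSeq GRCm38.p6: 27740 probes carried a current symbol, 8037 an older one and 9504 neither.

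The members and gene lists were chosen with earlier results of these data known. Values on all arrays are given for members past the threshold, for those with separated groups and a difference of at least 0.5, and for 14 receptors listed by name where tested. Of each list, up to 3 changed genes with the largest difference are named, or else the brightest tested gene. Some genes that this rule would name are not reported here. Abcg1, Apoe, Srebf1, Fasn, Abcg5, Abca1, Abcg8, Mylip, Cfd, Cidea, Ucp1, Plin1, Lipe, Jun, Jund, Klf6, Arc, Egr3, Fos, Junb, Klf4 and members outside this rule were picked after their values were seen. Alternatives changed the scaling, offset, dim-probe filter, variance model, array weights and block, or left out 1 array.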

Additional observations from a re-analysis of the deposited data

How the results depend on the processing

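The number of receptor genes past the threshold was 1 in the reported setting and stayed 1 with the authors' matrix values, an offset of 50, no filter on dim probes, no intensity trend and median scaling over all probes. It was 3 under median scaling over the tested probes, an alternative chosen after seeing the data (Nr1h3, Nr1h4 and Rarb), and 2 with stricter detection, a robust variance or array weights (Nr1h3 and Rarb). Leaving out 1 array gave 0 to 3. Without control replicate 2, control replicate 3 or cKO replicate 3 it was 0. Over all genes the count was 930, and 1419 under median scaling over the tested probes, where higher calls made up 40.8% instead of 62.2% and the median of all genes was -0.09 instead of -0.01. Leaving out 1 array gave 398 to 960. The cause of these shifts was not tested. The replicate numbers gave no sign of pairing the arrays. Deviations from the group means over the tested probes correlated at 0.04, 0.04 and -0.01 for equal numbers. For unequal numbers the correlations lay between -0.11 and 0.07. The replicate block gave 1 receptor gene and 721 genes in all.

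The 25 receptor genes had 411 values under 16 alternatives or, in the reported setting, on a further probe. Of these, 369 kept their sign and side of the threshold and 29 turned in sign, in 14 genes, 0 of them past the threshold. Abcb1b and Klf4, listed below with the receptors, are not receptor genes and are not in these counts. Median scaling over all probes turned Nr1h2 (-0.0080), Ppard (-0.043) and Abcb1b (-0.030). Scaling over the tested probes turned Nr1h2 (-0.11), Nr2f6 (-0.10), Ppard (-0.14), Rxrb (-0.026) and Abcb1b (-0.13), and array weights turned Ppard (-0.016). Another probe turned Nr1h2 (-0.052), Nr2f6 (-0.13), Nr5a2 (0.15), Rarb (0.0068), Rarg (-0.056), Rxrb (-0.24) and Vdr (-0.0038). Leaving out 1 array gave ranges across 0 for Esr1 (-0.079 to 0.19), Nr1h2 (-0.045 to 0.074), Nr1i3 (-0.059 to 0.32), Nr2f2 (-0.045 to 0.38), Nr2f6 (-0.050 to 0.11), Nr5a1 (-0.38 to 0.075), Ppard (-0.049 to 0.035), Rara (-0.073 to 0.13), Rxra (-0.33 to 0.077) and Klf4 (-1.81 to 0.16). Signals near background, as for Rara, Nr5a2, Rorb and Hnf4a, limit the size that can be read.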
